A study of Homo sapiens with 60 samples.

Results

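The nuclear genes for subunits of the mitochondrial respiratory chain were followed in A549, an established cell line from a human non-small cell lung carcinoma, after 24 h with vehicle or with 1 of 7 hot-water herbal extracts. The genes were chosen by symbol, with no measured value in the rule, although earlier results of these data were known. The choice took protein-coding genes named NDUFA, NDUFB, NDUFC, NDUFS or NDUFV with a number, NDUFAB1, SDHA to SDHD, 8 UQCR genes and the 10 COX genes of the widely expressed isoforms. It found 60 genes among 60675 gene identifiers, 38 for complex I, 4 for complex II, 8 for complex III and 10 for complex IV. They lay on 20 chromosomes. All 60 passed the low-count filter, as did 17268 genes in all.

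Complex I takes electrons from NADH and complex II, which is also the succinate dehydrogenase of the tricarboxylic acid cycle, takes them from succinate. Complex III passes them from ubiquinol to cytochrome c, and complex IV from cytochrome c to oxygen. Complexes I, III and IV pump protons, and ATP synthase uses the gradient. The mitochondrial genome encodes the hydrophobic core of complexes I, III and IV, while every subunit of complex II and all remaining subunits are nuclear genes, so assembly draws on RNA from both genomes. NDUFA4 carries a complex I name, under which it is counted here, although the protein is known as a component of complex IV.

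Vehicle was DMSO and had 3 libraries. Citri Unshius Pericarpium, Cimicifugae Rhizoma, Bupleuri Radix, Yijung-tang and Banhasasim-tang were each given at 500, 100 and 20 µg/mL, here called the high, medium and low dose, with 3 libraries a dose. Aconiti Lateralis Radix Preparata was given at 360, 72 and 14.4 µg/mL with 3 libraries a dose, and Bojungikgi-tang at 500, 100 and 20 µg/mL with 1 library a dose. Yijung-tang, Banhasasim-tang and Bojungikgi-tang are mixtures of herbs and the others single herbs, and each extract goes by its opening word here. The vehicle is labelled 0.1% DMSO on the samples and 2% in the design text, and the labels name DMSO for vehicle alone. Citri and Cimicifugae share a set label, as do Bupleuri and Aconiti, and Yijung and Banhasasim. Vehicle and Bojungikgi carry set labels of their own, so an extract and its set cannot be told apart in a comparison with vehicle, whereas comparisons within a set do not use vehicle. All cells were kept in RPMI medium with serum. A549 is a single established line, and no label says that replicates were separate cultures. P-values then measure only how far these libraries spread, which may be technical.

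Libraries held 17793655 to 30188211 counts, with a median of 25758911. All 10 marker genes of the line were above 10 CPM (the usual per-library scaling of counts, with edgeR's TMM factors) in each of the 60 libraries, and 9 of 10 markers of blood, endothelium, muscle, glia and alveolar type II cells were below 1 CPM throughout. The remaining one, GFAP, reached 2.21 CPM. CPM values are shares of a library, so fewer transcripts of a gene and more RNA from other genes cannot be told apart, nor can fewer cells of a kind and less RNA per cell. Copies named after a member existed for 34 members (115 copies), of which SDHAP1, at 6.51 CPM in vehicle beside 119 for SDHA, and UQCRFS1P1, at 1.31 CPM beside 271 for UQCRFS1, reached 1 CPM in vehicle. At the Aconiti high dose UQCRFS1P1 was at 3.28 CPM (log2 1.41, adjusted p = 0.00753 by edgeR) and COX6A1P2, a copy of COX6A1, at 1.16 CPM against 0.59 in vehicle (log2 1.01, adjusted p = 0.0266). How counting split reads between copies is uncertain. Exons of a gene on the opposite strand overlapped those of 23 members, with a partner at 1 CPM or more for 15 of them, and exons on the same strand overlapped those of 18, with such a partner for 4. The kit keeps strand, but the strand setting of the counting is not given in the sources used here.

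In vehicle the subunit genes were abundant, and complex IV genes stood highest per transcript length. The median over the 60 genes was 80.4 CPM per kilobase, beside 5.36 over all genes tested. By complex the median was 69.7 for complex I, 66.6 for complex II, 98.1 for complex III and 238 for complex IV. COX6B1, a small complex IV subunit facing the intermembrane space, was the most abundant at 500.1 ± 40.8 CPM per kilobase (SD, n = 3; 458, 502 and 540.0 in the 3 libraries). COX5B, a zinc-binding subunit, was lowest in complex IV at 122 ± 8.47 CPM per kilobase (113, 123 and 129.7). The 10 complex IV genes therefore spanned a 4.11-fold range. In complex I the range was 18-fold. NDUFC2, a membrane-arm accessory subunit, lay at 187 ± 16.8 CPM per kilobase (169, 190.0 and 203) and NDUFV3, an accessory subunit beside the NADH-binding module, at 10.4 ± 0.502 CPM per kilobase (10.6, 9.85 and 10.8). SDHC, a membrane anchor of complex II, lay at 292 ± 5.48 CPM per kilobase (293, 297 and 286) and SDHB, its iron-sulfur subunit, at 55.2 ± 3.08 CPM per kilobase (52.5, 54.5 and 58.6). In complex III, UQCRB, which binds ubiquinone, was highest at 212 ± 11.3 CPM per kilobase (199, 221 and 214) and UQCRC1, a core protein, lowest at 62.7 ± 1.99 CPM per kilobase (61.4, 61.8 and 65.0). The values of these pairs did not overlap between vehicle libraries, whereas neighbours in the order often did: SDHA lay at 56.5 ± 2.63 CPM per kilobase, next to SDHB. Transcript lengths come from GENCODE 29, as the median of a gene's basic protein-coding transcripts. Values per kilobase, their order and their ranges depend on these lengths. SDHC was set at 460 nucleotides and SDHB at 1153, and without length they lay at 134 and 63.6 CPM. NDUFC2 was set at 561 nucleotides and NDUFV3 at 3126, and without length they lay at 105 and 32.5 CPM. Which transcripts these cells used was not tested.

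**Figure D1:**
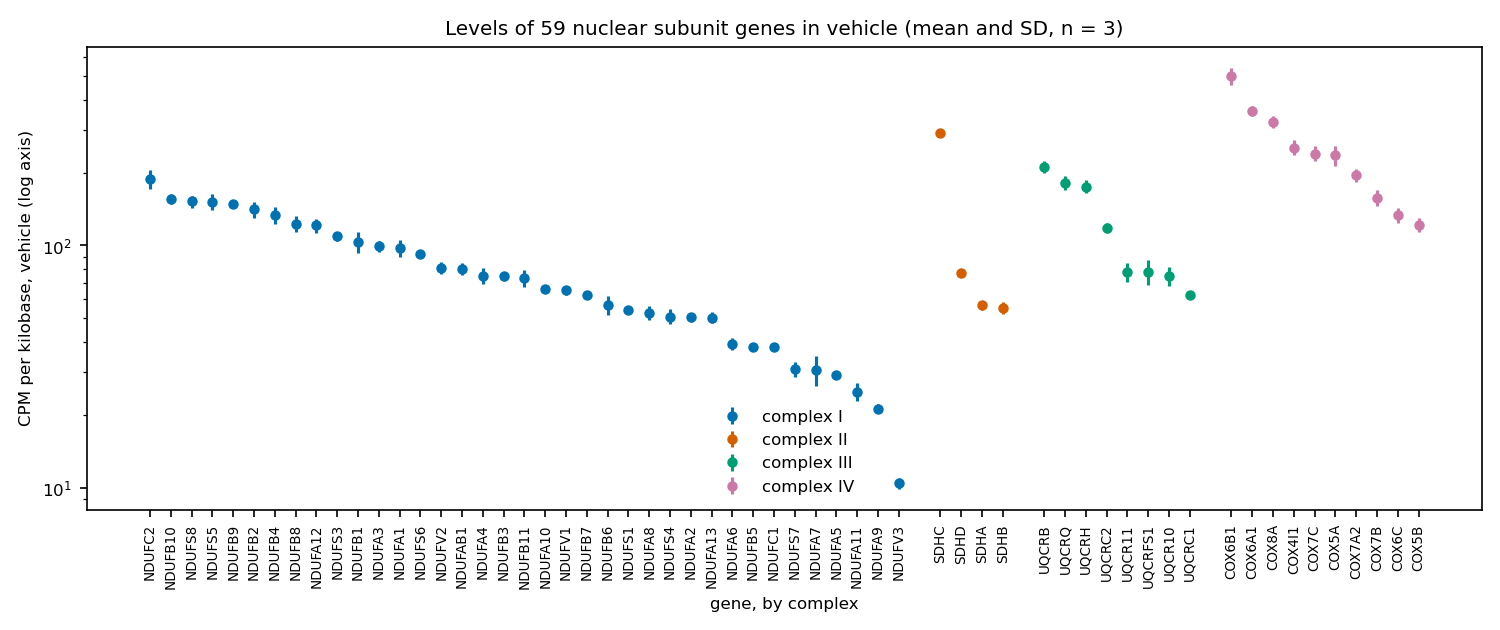
Level per transcript length of 59 of the 60 subunit genes in vehicle, in CPM per kilobase on a log axis, ordered within each complex; points are means and bars SDs of 3 libraries. Complex IV genes lie between 122 and 500.1 CPM per kilobase, and the complex I genes reach down to 10.4 for NDUFV3.

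The members also share short transcripts, with a median of 750 nucleotides (407 for NDUFA3 to 4502 for NDUFA9) and 49 of 60 under 1500. Promoters, taken as 250 bases before to 50 after the start from RefSeq on GRCh38.p14, were matched for 51 members. COX6C, UQCRB, NDUFC2, NDUFA4, NDUFB9, NDUFB5, NDUFS5 and SDHC were among the unmatched. Motifs of 3 factors known at such promoters were searched on both strands: the motif of NRF1, the nuclear respiratory factor, CCGGAAGT for the ETS factor GABPA, and AANATGGC for YY1. The NRF1 motif stood in 12 of 51 member promoters (23.5%) and 6.28% of 27305 promoters, the GABPA letters in 8 (15.7%) and 4.44%, and the YY1 letters in 19 (37.3%) and 6.82%. Any of the 3 stood in 30 of 51. A match is a description of letters and not a measured site. The promoters below belong to 3 of the members called at the Aconiti high dose, with motif letters in capitals. They are SDHA (chr5:218070-218369, plus strand), NDUFA7 (chr19:8321326-8321625, minus strand) and NDUFS7 (chr19:1383657-1383956, plus strand). Of the others called there, NDUFS8 and COX6A1 hold 1 YY1 match each, and NDUFV1 and COX5A hold none of the 3 motifs. Capitals in SDHA mark its 4 NRF1 matches, while NDUFA7 and NDUFS7 hold 1 YY1 match each just after the start.
SDHA: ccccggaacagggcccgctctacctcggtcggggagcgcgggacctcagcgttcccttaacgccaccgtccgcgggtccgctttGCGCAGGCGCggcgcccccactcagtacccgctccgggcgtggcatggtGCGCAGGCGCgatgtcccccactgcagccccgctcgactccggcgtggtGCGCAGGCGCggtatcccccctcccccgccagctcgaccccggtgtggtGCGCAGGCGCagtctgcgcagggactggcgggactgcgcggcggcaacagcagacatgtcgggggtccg
NDUFA7: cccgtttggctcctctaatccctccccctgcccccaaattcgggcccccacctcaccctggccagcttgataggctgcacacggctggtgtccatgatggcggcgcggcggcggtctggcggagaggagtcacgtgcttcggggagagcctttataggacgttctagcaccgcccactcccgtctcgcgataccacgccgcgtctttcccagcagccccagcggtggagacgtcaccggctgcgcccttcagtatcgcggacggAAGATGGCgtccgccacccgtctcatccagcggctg
NDUFS7: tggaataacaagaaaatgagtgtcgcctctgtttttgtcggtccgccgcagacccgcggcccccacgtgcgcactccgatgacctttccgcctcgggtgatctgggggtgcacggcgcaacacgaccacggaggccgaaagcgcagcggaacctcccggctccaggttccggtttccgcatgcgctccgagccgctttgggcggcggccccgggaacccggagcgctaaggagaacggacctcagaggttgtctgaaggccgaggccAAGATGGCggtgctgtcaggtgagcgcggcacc

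Summed over the 60 genes, vehicle libraries held 5211, 5447 and 5811 CPM, 5490.0 ± 302 (SD, n = 3), of which complex I made up 2463, 2538 and 2708. Of 57 extract libraries, the sum was highest in Citri medium library 1 at 9808 CPM and lowest in the Bojungikgi medium library at 4906. Group means of the sum lay between 5144 ± 86.3 in Banhasasim medium and 6268 ± 471 in Aconiti medium (SD, n = 3 each), except Citri medium, whose libraries gave 9808, 5710.0 and 5646. In Aconiti high the libraries held 5146, 6520.0 and 6521 CPM, so library 1 lay under and libraries 2 and 3 over every vehicle library.

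**Figure D2:**
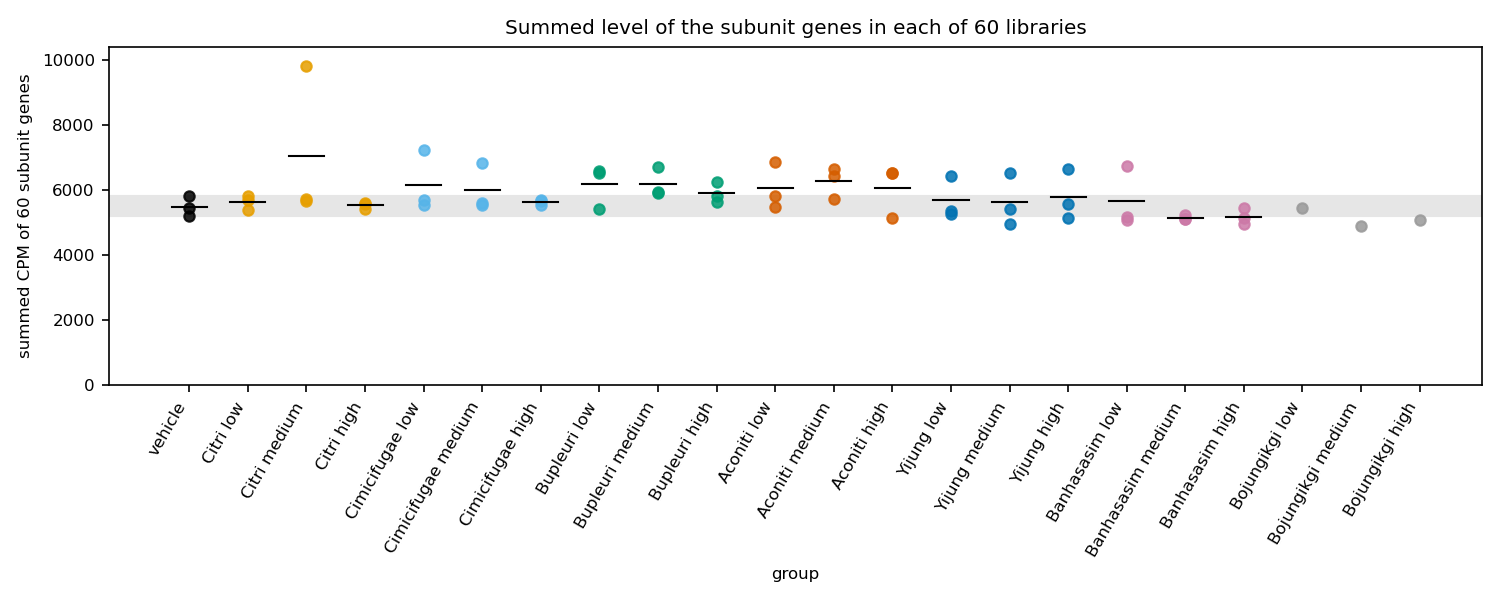
Summed CPM of the 60 subunit genes in each of 60 libraries, by group from low to high dose; points are libraries, bars group means and the grey band the range of the 3 vehicle libraries (5211 to 5811). Citri medium library 1 stands apart at 9808, and the Aconiti high libraries lie on both sides of the band.

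The level of the subunit genes moved with how a library divides its counts between long and short transcripts. This length balance is the mean log2 CPM of 1308 genes with transcripts over 6000 nucleotides minus that of 4675 genes under 1500, members left out. It was 2.42, 2.35 and 2.24 in vehicle. In 22 of the 60 libraries the balance lay below all vehicle libraries, at 1.27 to 2.22, and their summed subunit level was 5684 to 9808 CPM with a median of 6520.0. In the remaining 38, at 2.24 to 2.45, it was 4906 to 5829 with a median of 5434. Of the 22, 18 lay above all 38. Low-balance libraries occurred in every extract except Bojungikgi. Balance was as low in Citri medium library 1 as 1.27, with 56 of 60 members above all 3 vehicle libraries beside 41.4% of all genes tested, and this library held the highest value of 54 members.

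With the balance as a covariate in the edgeR fit over 57 libraries, its coefficient was below 0 (a higher level where short transcripts weigh more) for 59 of 60 members at an adjusted p under 0.05, beside 33.2% of all genes tested and 55.1% of genes under 1500 nucleotides. The median coefficient was −0.81 log2 per unit of balance for members, −0.47 for genes under 1500 nucleotides and −0.01 for all genes. It was steepest for NDUFB1, a membrane-arm subunit of complex I, at −1.08 ± 0.074 (SE). It was shallow for UQCRC2, a core protein of complex III, at −0.16 ± 0.049, NDUFA10, a complex I accessory subunit, at −0.18 ± 0.035, and SDHA at −0.28 ± 0.044. NDUFS1, the largest iron-sulfur subunit of complex I, was the exception at 0.30 ± 0.045. The coefficients did not follow a member's own transcript length throughout. UQCRFS1, set at 3475 nucleotides, had −0.79 ± 0.047 and NDUFA4, at 2130, had −0.82 ± 0.060. SDHC, at 460, had −0.43 ± 0.053. Without Citri medium library 1 the counts were again 59 and 1, with a median of −0.80 for members and 30.5% of all genes below 0. Folds below are from the fit without this covariate unless it is named. What sets the balance of a library was not tested.

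**Figure D3:**
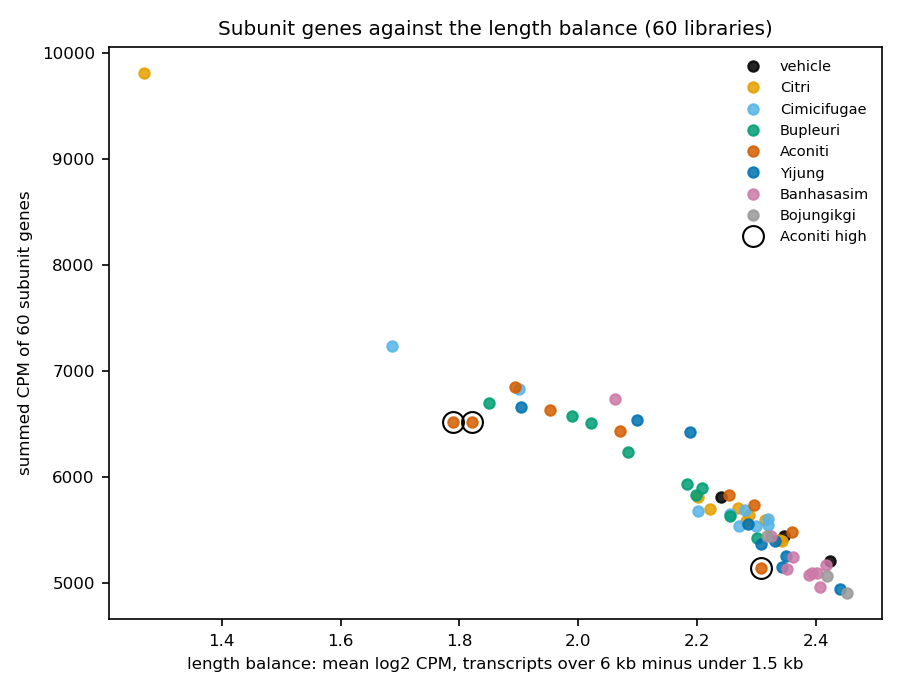
Summed CPM of the 60 subunit genes (vertical axis) against the length balance of each of 60 libraries (horizontal axis, log2 units), coloured by extract, with the Aconiti high libraries circled. Libraries with a balance of 2.24 or more hold 4906 to 5829 CPM and the sum climbs to 9808 at a balance of 1.27; Aconiti high library 1 lies at 2.31 with 5146 CPM.

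A panel of 8 members was followed library by library. NDUFV1, the flavoprotein that binds NADH, was at 97.0, 95.2 and 104 CPM in the 3 vehicle libraries, NDUFS1 at 133, 129.6 and 127 and NDUFB8, a membrane-arm subunit lost early when complex I fails to assemble, at 79.9, 80.9 and 91.3. NDUFA4 was at 155, 151 and 173 CPM. SDHB was at 60.6, 62.8 and 67.5 CPM and UQCRFS1, the Rieske iron-sulfur protein of complex III, at 238, 273 and 302. COX4I1, the common isoform of the regulatory subunit IV of complex IV, was at 188, 199.8 and 217 and COX6C, a small subunit, at 79.2, 82.7 and 90.6. In 7 of the 8, vehicle library 3 was the highest, NDUFS1 being the exception. Replicate numbers name libraries and carry no order.

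Citri, the peel of a mandarin fruit, left the summed subunit level at 5393 to 5813 CPM in 8 of its 9 libraries, beside 5211 to 5811 in vehicle, and at 9808 in the ninth. By edgeR 0 of 60 members passed an adjusted p of 0.05 at any of its 3 doses, beside 0.0463%, 0.0174% and 0.00579% of all genes at the high, medium and low dose. At an unadjusted p under 0.05 there were 0, 48 and 0 members, beside 3.65%, 21.1% and 3.24% of all genes, and DESeq2 called 0, 1 (UQCRFS1) and 0. The median log2 fold of the members was 0.01, 0.40 and 0.04, with all-gene medians of 0.00. COX4I1 was at 196, 199 and 203 CPM at the high dose, 397, 215 and 208 at the medium dose and 209, 195 and 215 at the low dose. UQCRFS1 was at 293, 309 and 279.8 CPM at the high dose, 545, 309.8 and 312 at the medium dose and 302, 299 and 340.5 at the low dose. COX6C was at 86.0, 83.1 and 92.8 CPM at the high dose, 184, 92.0 and 87.1 at the medium dose and 94.3, 81.1 and 92.3 at the low dose. In these 3 genes Citri medium library 1 exceeded every other Citri library, and its fellow medium libraries lay close to the high- and low-dose ones. NDUFV1 was at 102, 106 and 101 CPM at the high dose, 158, 104 and 98.1 at the medium dose and 103, 104 and 104 at the low dose. NDUFB8 was at 83.0, 83.5 and 83.0 CPM at the high dose, 155, 84.6 and 84.7 at the medium dose and 88.7, 84.0 and 90.5 at the low dose. NDUFA4 was at 155, 165 and 163 CPM at the high dose, 268, 157 and 169 at the medium dose and 173, 157 and 165 at the low dose. The same library was the highest in all 3. SDHB was at 66.2, 64.9 and 67.4 CPM at the high dose, 107, 67.2 and 68.8 at the medium dose and 65.5, 62.9 and 66.4 at the low dose. NDUFS1 went the other way, at 126, 121 and 122 CPM at the high dose, 101, 128 and 129 at the medium dose and 133, 126 and 124 at the low dose, so that library 1 of the medium dose was the lowest. Without Citri medium library 2 or 3 the shared fit called 45 and 47 members higher, beside 13.2% and 12.7% of all genes, and without library 1 it called 0, so the medium-dose folds rest on 1 library.

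Cimicifugae, the rhizome of bugbane, gave no member an adjusted p under 0.05 at any dose by edgeR, beside 1.96%, 0.0347% and 0.0116% of all genes from high to low dose. Counts at an unadjusted p under 0.05 were 0, 1 and 1, and DESeq2 called 0 at each dose. The median log2 fold of the members was 0.03, 0.12 and 0.17, the lowest dose showing the largest value. COX4I1 was at 211, 216 and 208 CPM at the high dose, 210.4, 263 and 208 at the medium dose and 216, 288 and 209.9 at the low dose. COX6C was at 89.3, 87.7 and 85.2 CPM at the high dose, 79.6, 116 and 89.7 at the medium dose and 92.3, 125 and 92.5 at the low dose. UQCRFS1 was at 309, 301 and 295 CPM at the high dose, 263, 382 and 301 at the medium dose and 301, 394 and 316 at the low dose. Library 2 of the medium and of the low dose stood above the rest in each, and these had balances of 1.90 and 1.69. NDUFV1 was at 109, 106 and 98.7 CPM at the high dose, 109, 123 and 102 at the medium dose and 111, 138 and 97.8 at the low dose. NDUFB8 was at 84.0, 84.3 and 84.3 CPM at the high dose, 84.6, 105 and 83.7 at the medium dose and 86.5, 114 and 83.4 at the low dose. NDUFA4 was at 164, 166 and 155 CPM at the high dose, 159.9, 199 and 171 at the medium dose and 151, 211 and 157 at the low dose. At the high dose all 3 genes varied little between libraries. SDHB was at 59.6, 60.5 and 60.8 CPM at the high dose, 65.2, 77.6 and 62.9 at the medium dose and 69.9, 87.1 and 64.2 at the low dose, with 2 high-dose libraries just under vehicle. NDUFS1 was at 124, 121 and 133 CPM at the high dose, 125, 113 and 126 at the medium dose and 129, 103 and 123 at the low dose, 7 of 9 libraries lying under every vehicle library. High against low dose gave 0 calls by edgeR, with 0 by DESeq2 and 3 under an unadjusted p of 0.05, beside 1.34% of all genes. In that comparison 58 of 60 folds were below 0, with a median of −0.15, and the groups' mean balances were 2.26 and 2.08. With the balance covariate NDUFAB1, the mitochondrial acyl carrier protein, was called lower at the high dose against vehicle, at −0.20 ± 0.0545 (SE) (adjusted p = 0.013 by edgeR), beside 8.22% of all genes.

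Bupleuri, the root of a thorowax, likewise had 0 called members at each dose by edgeR, beside 0.712%, 0% and 0% of all genes from high to low dose. At an unadjusted p under 0.05 there were 1, 2 and 3, and DESeq2 called 0 at each dose. Folds leaned upward in 55, 59 and 57 of 60 members, with medians of 0.09, 0.17 and 0.18. Of the 9 libraries 7 had a balance below all vehicle libraries. COX4I1 was at 245, 211 and 219 CPM at the high dose, 269, 224 and 223 at the medium dose and 203, 245 and 254 at the low dose. COX6C was at 108, 89.1 and 90.3 CPM at the high dose, 116, 104 and 88.7 at the medium dose and 83.2, 99.8 and 107 at the low dose. UQCRFS1 was at 330.1, 304 and 319 CPM at the high dose, 370.4, 318 and 333 at the medium dose and 275, 359 and 365 at the low dose. UQCRFS1 exceeded every vehicle library in 8 of 9 libraries and COX4I1 in 7. NDUFV1 was at 120.0, 109 and 103 CPM at the high dose, 135, 109 and 105 at the medium dose and 101, 125 and 114 at the low dose. NDUFB8 was at 95.5, 85.3 and 88.5 CPM at the high dose, 104, 93.3 and 88.3 at the medium dose and 86.1, 102 and 103 at the low dose. NDUFA4 was at 175, 159 and 173 CPM at the high dose, 186, 171 and 175 at the medium dose and 155, 195 and 195 at the low dose. Library 1 was the highest of the high dose and of the medium dose in NDUFV1, NDUFB8 and NDUFA4. SDHB was at 70.2, 64.4 and 67.7 CPM at the high dose, 77.2, 69.4 and 69.5 at the medium dose and 68.1, 73.7 and 78.9 at the low dose. NDUFS1 was at 126, 124 and 124 CPM at the high dose, 110.1, 127 and 126 at the medium dose and 127, 114 and 125 at the low dose, below every vehicle library in all 9. High against low dose gave 0 calls by edgeR, 0 by DESeq2 and 0 under an unadjusted p of 0.05, beside 0.353% of all genes, with a median of −0.07. With the balance covariate NDUFV2, a core subunit of the NADH-binding module, was called at the high dose against vehicle, at −0.20 ± 0.0528 (SE) (adjusted p = 0.0196 by edgeR), beside 3.92% of all genes.

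In Yijung, an herb mixture, 7.09% and 7.85% of all genes were called at the high and medium dose, and no subunit gene was. By edgeR 0 members passed at any dose, at an unadjusted p under 0.05 there were 0, 0 and 0, and DESeq2 called 0, 0 and 0, beside 0.0116% of all genes at the low dose. Median log2 folds were 0.08, 0.02 and 0.04 from high to low. COX4I1 was at 201, 258 and 189 CPM at the high dose, 249, 215 and 184 at the medium dose and 235, 194 and 193 at the low dose. COX6C was at 86.4, 109.8 and 85 CPM at the high dose, 106, 81.9 and 77.0 at the medium dose and 105, 82.5 and 81.8 at the low dose. UQCRFS1 was at 304, 375 and 296 CPM at the high dose, 332, 276 and 287 at the medium dose and 344, 298 and 300.3 at the low dose. High-dose library 2 and library 1 of the medium and of the low dose were the highest of their groups in each, with balances of 1.90, 2.10 and 2.19. NDUFV1 was at 88.4, 106 and 88.2 CPM at the high dose, 107, 94.6 and 86.4 at the medium dose and 104, 89.1 and 97.8 at the low dose. NDUFB8 was at 84.6, 106 and 75.2 CPM at the high dose, 101, 78.6 and 75.0 at the medium dose and 96.3, 76.7 and 86.6 at the low dose. NDUFA4 was at 167, 197 and 149 CPM at the high dose, 222, 167 and 146 at the medium dose and 208, 158 and 146 at the low dose. NDUFV1 lay under all vehicle libraries in 5 of 9. SDHB was at 73.5, 84.0 and 60.5 CPM at the high dose, 89.8, 68.8 and 65.5 at the medium dose and 76.2, 62.8 and 62.7 at the low dose. NDUFS1 was at 128, 125 and 119 CPM at the high dose, 132, 125 and 120.4 at the medium dose and 135, 121 and 129 at the low dose. The largest SDHB fold was 0.23 ± 0.139 (SE) at the medium dose, with an adjusted p of 0.374 by edgeR. With the balance covariate 7 members were called lower at the high dose (NDUFA8, NDUFC2, NDUFS7, NDUFV1, SDHA, SDHD and UQCRQ), beside 16% of all genes. At the medium dose 1 was called, SDHB, which was higher, beside 19.3%. High against low dose gave 0 calls by edgeR, 0 by DESeq2 and 0 under an unadjusted p of 0.05, beside 4.93% of all genes.

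Banhasasim, also a mixture, showed the subunit genes slightly under vehicle, and none was called. By edgeR 0 members passed at each dose, beside 0.185%, 0% and 0% of all genes from high to low. At an unadjusted p under 0.05 there were 1, 0 and 0, and DESeq2 called 0 at each. Folds were below 0 for 57 and 58 of 60 members at the high and medium dose, with medians of −0.09 and −0.10. At the low dose 49 were above 0 with a median of 0.04. COX4I1 was at 184, 177 and 209.8 CPM at the high dose, 187, 182 and 186 at the medium dose and 258, 187 and 188 at the low dose. COX6C was at 75.4, 79.7 and 82.4 CPM at the high dose, 75.7, 79.9 and 79.7 at the medium dose and 123, 75.9 and 76.0 at the low dose. UQCRFS1 was at 276, 279 and 294 CPM at the high dose, 289, 283 and 283 at the medium dose and 355, 292 and 297 at the low dose. Low-dose library 1, with a balance of 2.06, was above all others, and its fellow low-dose libraries lay close to the higher doses. NDUFV1 was at 95.1, 87.1 and 97.2 CPM at the high dose, 88.8, 88.3 and 93.2 at the medium dose and 115, 96.8 and 92.3 at the low dose. NDUFB8 was at 76.4, 75.4 and 83.7 CPM at the high dose, 83.1, 76.1 and 73.9 at the medium dose and 103, 75.7 and 77.1 at the low dose. NDUFA4 was at 159, 141 and 152 CPM at the high dose, 162, 144 and 142 at the medium dose and 199, 139.6 and 144 at the low dose. NDUFV1 and NDUFB8 lay under all vehicle libraries in 6 of 9 libraries each. SDHB was at 64.0, 66.3 and 62.8 CPM at the high dose, 68.0, 60.6 and 61.3 at the medium dose and 85.9, 60.9 and 59.5 at the low dose. NDUFS1 was at 126, 125 and 131 CPM at the high dose, 126, 129 and 128 at the medium dose and 126, 121 and 127 at the low dose. NDUFS1 lay under every vehicle library in 6 of 9. The high and medium groups had mean balances of 2.36 and 2.39, slightly over the vehicle mean of 2.34. High against low dose gave 0 calls by edgeR, 0 by DESeq2 and 0 under an unadjusted p of 0.05, beside 0.127% of all genes.

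Bojungikgi has 1 library a dose, so no test was made. Differences from the vehicle mean were taken on log2(CPM + 1). Their median over members was −0.12, −0.16 and −0.02 at the high, medium and low dose, beside all-gene medians of −0.01, −0.01 and −0.01. No member differed by over 0.5, beside 0.99%, 1.08% and 1.14% of all genes. COX7A2, a small complex IV subunit, was lowest at the high and medium dose with −0.30 and −0.39. From high to low dose COX4I1 was at 185, 183 and 200.1 CPM, COX6C at 72.3, 71.8 and 80.4 and UQCRFS1 at 283, 277 and 296. NDUFV1 was at 96.1, 92.9 and 94.0, NDUFS1 at 124, 126 and 124, NDUFB8 at 73.2, 68.9 and 80.1 and NDUFA4 at 155, 139 and 153. SDHB was at 59.3, 55.2 and 59.2, and both SDHB and NDUFS1 were under every vehicle library at each dose. The 3 libraries had balances of 2.42, 2.45 and 2.32.

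Aconiti, the processed root of aconite, was the only extract with called members against vehicle in the shared edgeR fit without the covariate. At the high dose 6 of 60 were higher (NDUFA7, NDUFS7, NDUFV1, NDUFS8, COX6A1 and COX5A) and SDHA was lower, beside 17% and 15.7% of all genes (32.7% in all), so the members' share, 7 of 60, was below the background. DESeq2 called 9, and by edgeR 12 members were under an unadjusted p of 0.05. The median log2 fold of the members was 0.14, beside −0.01 over all genes. Complex IV stood highest, with all 10 folds above 0, a median of 0.29 and 2 members called. Complex I had 4 of 38 called higher and a median of 0.14, complex III had 0 of 8 called and a median of 0.12, and complex II had 1 of 4 called lower and a median of −0.11. With the balance covariate the complex IV median was −0.076, with 0 called higher and 4 lower. Complex IV also stood highest, with all 10 folds above 0, in many other comparisons with vehicle. Among the single herbs these were Citri medium (0.475), Cimicifugae medium (0.173) and low (0.214), and Bupleuri high (0.151), medium (0.228) and low (0.209). Aconiti medium (0.275), Aconiti low (0.177) and Banhasasim low (0.072) showed it too. At Banhasasim high and medium all 10 were below 0.

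SDHA is the flavoprotein that oxidises succinate. It was at 90.3, 109 and 105 CPM at the high dose against 115, 117 and 126 in vehicle, without overlap, and gave a log2 fold of −0.23 ± 0.0715 (SE), adjusted p = 0.0101 by edgeR. At the medium dose it was at 108, 109.9 and 121 CPM and at the low dose at 112, 113 and 131, overlapping vehicle. The remaining complex II genes had folds in both directions, none past the threshold. SDHB was at 65.2, 84.3 and 81.0 CPM at the high dose against 60.6, 62.8 and 67.5 in vehicle (0.27, adjusted p = 0.127), SDHC had a fold of −0.11 and SDHD of −0.11, with adjusted p-values of 0.434 and 0.498. SDHAP1, the copy of SDHA, was at 6.51 CPM in vehicle and 5.95 at the high dose, with a fold of −0.14 and an adjusted p of 0.57.

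In complex I the called genes included 3 of the 7 nuclear core subunits, beside 32.7% of all genes called in either direction. With the balance covariate 1 core subunit was called higher and 2 lower, and the core median was −0.012. NDUFV1 was at 108, 144 and 136 CPM at the high dose against 97.0, 95.2 and 104 in vehicle, without overlap (a log2 fold of 0.39 ± 0.132 (SE), adjusted p = 0.0184 by edgeR). NDUFS7, which carries the iron-sulfur cluster that hands electrons to ubiquinone, was at 33.1, 54.7 and 45.2 CPM at the high dose against 31.1, 30.5 and 34.7 in vehicle (a log2 fold of 0.47 ± 0.158 (SE), adjusted p = 0.0197). NDUFS8, another iron-sulfur core subunit, was at 91.9, 132 and 117 CPM at the high dose against 83.9, 84.5 and 92.8 in vehicle (a log2 fold of 0.38 ± 0.152 (SE), adjusted p = 0.0482). Library 1 of NDUFS7 and of NDUFS8 lay inside the vehicle range, and libraries 2 and 3 lay above it. NDUFA7, an accessory subunit, was at 20.7, 29.6 and 29.7 CPM at the high dose against 17.3, 16.6 and 21.4 in vehicle, overlapping by library 1, with a log2 fold of 0.54 ± 0.158 (SE), adjusted p = 0.00706. Its exons share 89 bases with RPS28, a ribosomal protein gene on the opposite strand at 216 CPM in vehicle and 269.7 at the high dose (log2 0.32, adjusted p = 0.127). Of the other core subunits, NDUFS1 had a fold of −0.17, NDUFS3 of 0.05 and NDUFV2 of −0.04, none past the threshold. The lowest fold of all members was that of NDUFB4, a membrane-arm subunit, at 59.3, 72.0 and 88.6 CPM at the high dose against 86.6, 84.6 and 97.5 in vehicle (a log2 fold of −0.29 ± 0.145 (SE), adjusted p = 0.126). Library 1 had the lowest value of the 3.

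In complex IV, COX6A1, the non-muscle isoform of subunit VIa, was at 224, 285 and 294 CPM at the high dose against 194, 208 and 213 in vehicle without overlap (a log2 fold of 0.38 ± 0.143 (SE), adjusted p = 0.0352 by edgeR). COX5A was at 145, 198 and 180.1 CPM at the high dose against 121, 139.5 and 146 in vehicle, overlapping by library 1 (a log2 fold of 0.36 ± 0.144 (SE), adjusted p = 0.0486). COX4I1 was at 209.9, 286 and 271 CPM at the high dose against 188, 199.8 and 217 in vehicle and COX6C at 86.8, 113 and 108 CPM at the high dose against 79.2, 82.7 and 90.6 in vehicle, with folds of 0.34 and 0.29 and adjusted p-values of 0.103 and 0.243. Within complex IV, library 1 of the high dose was again the lowest of its group in COX6A1, COX5A, COX4I1 and COX6C. Of the rest of the panel, NDUFB8 was at 79.3, 104 and 106 CPM at the high dose against 79.9, 80.9 and 91.3 in vehicle. NDUFA4 was at 132, 178 and 179 CPM at the high dose against 155, 151 and 173 in vehicle. UQCRFS1 was at 236, 310.4 and 309.5 CPM at the high dose against 238, 273 and 302 in vehicle, and NDUFS1 at 128, 104 and 114 CPM at the high dose against 133, 129.6 and 127 in vehicle. None of these 4 passed the threshold.

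**Figure D4:**
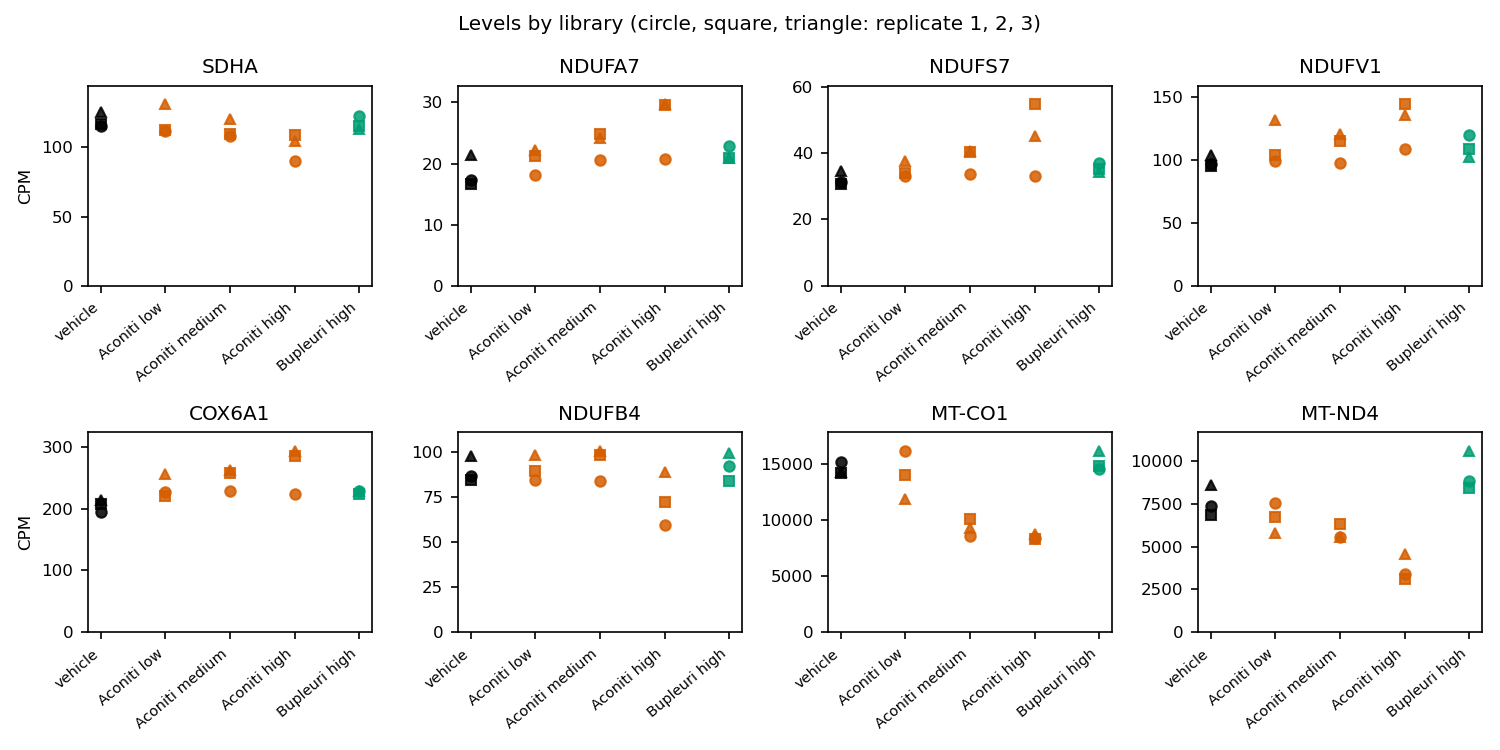
CPM of SDHA, NDUFA7, NDUFS7, NDUFV1, COX6A1 and NDUFB4 and of the mitochondrially encoded MT-CO1 and MT-ND4 in vehicle, the 3 Aconiti doses and Bupleuri high; symbols mark replicates 1, 2 and 3. SDHA at the Aconiti high dose lies at 90.3 to 109 CPM, under the 115 to 126 of vehicle, whereas the libraries of NDUFA7 and NDUFS7 overlap.

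The 3 high-dose libraries differed in length balance, at 2.31, 1.79 and 1.82. Library 1 had 5 members above and 32 below all vehicle libraries, beside 35.3% and 37.9% of all genes. Library 2 had 47 above and 7 below, and library 3 had 48 and 4, beside 40.1% and 40.3% of all genes for library 2 and 40.3% and 38.6% for library 3. Mean balance was 1.97 ± 0.290 at the high dose and 2.34 ± 0.092 in vehicle (SD, n = 3 each). Dose and balance therefore cannot be fully told apart, and the covariate may take away part of a dose difference. With the balance as a covariate the direction of the members turned. Of 60, 2 were called higher (NDUFA7 and NDUFV1) and 31 lower, beside 19% and 19.1% of all genes (38.1% in all), and the median fold became −0.17. By complex, 2 were higher and 19 lower in complex I, 3 lower in complex II, 5 in complex III and 4 in complex IV. NDUFA7 had a fold of 0.24 ± 0.0772 (SE) and NDUFV1 of 0.13 ± 0.0485 (SE) in that fit. The lowest were NDUFB4 at −0.57 ± 0.0688 (SE), NDUFB3, also of the membrane arm, at −0.56 ± 0.0829 (SE) and NDUFA2, an accessory subunit, at −0.41 ± 0.0594 (SE). SDHA was called lower in both fits, here at −0.34 ± 0.0523 (SE) with an adjusted p of 7.41e-07 by edgeR. The called rises of NDUFS7, NDUFS8, COX6A1 and COX5A did not pass there, with folds of 0.14, 0.08, 0.09 and 0.07 and adjusted p-values of 0.0624, 0.358, 0.165 and 0.303. The fit with 22 low-balance libraries left out keeps 1 high-dose library, library 1, which is assumed to vary like the other groups. It called 12 members lower and none higher, beside 26.9% of all genes called, and describes that library rather than the dose.

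Single libraries also decided these counts. Without high-dose library 1 the shared fit called 15 members (14 higher, 1 lower), beside 37.2% of all genes. Without high-dose library 2 it called 2, beside 22.5%, and without high-dose library 3 it called 4, beside 24.8%. It called 2 without vehicle library 1 (24.4% of all genes), 2 without vehicle library 2 (25.1%) and 4 without vehicle library 3 (29.4%). Citri medium library 1 is in neither group but enters the shared spread, and without it 15 members were called (12 higher, 3 lower), beside 37.7% of all genes. NDUFA7 was called in each of these fits. SDHA missed the threshold without high-dose library 1 (adjusted p = 0.106), without vehicle library 3 (0.0594) and in a fit of the 6 libraries alone (0.0738).

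**Figure D5:**
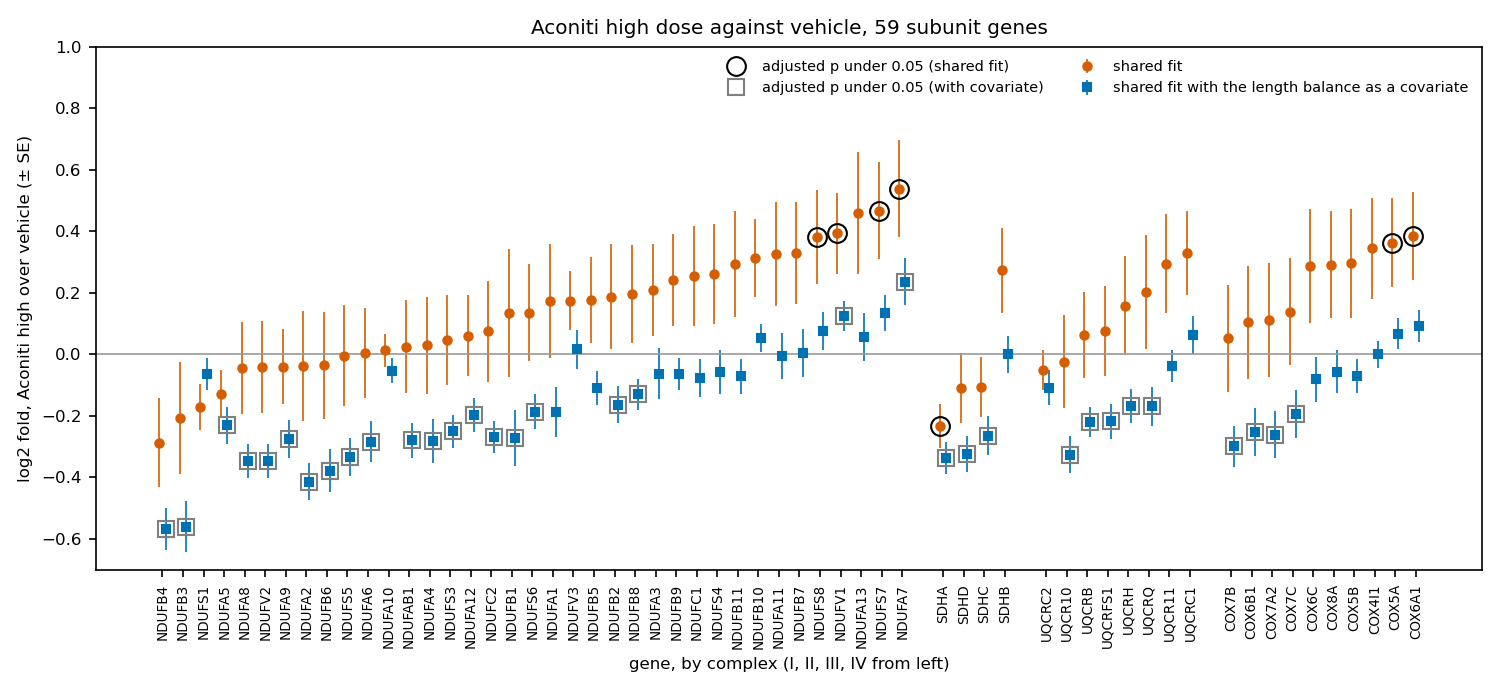
Log2 fold of 59 of the 60 subunit genes, Aconiti high over vehicle, by complex; circles are the shared fit and squares the fit with the length balance as a covariate, bars are SEs and outlined symbols passed an adjusted p of 0.05. Under the covariate all genes drawn but NDUFS1 sit lower, and the median of the 60 moves from 0.14 to −0.17.

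At the medium and low dose of Aconiti 0 members were called by edgeR, with 0 by DESeq2 at both and 3 and 0 under an unadjusted p of 0.05, beside 2.29% and 0.0695% of all genes. Median folds were 0.21 and 0.15, with 57 and 56 of 60 above 0, and mean balances were 2.11 and 2.17. COX4I1 was at 212, 249.9 and 267 CPM at the medium dose and 199.6, 217 and 267 at the low dose. COX6C was at 89.2, 111 and 109 CPM at the medium dose and 86.5, 91.9 and 105 at the low dose. UQCRFS1 was at 297, 294 and 356 CPM at the medium dose and 299, 308 and 366 at the low dose. In all 3 genes the dose groups overlapped, and low-dose library 3, with a balance of 1.89, was the highest of its group. NDUFV1 was at 97.9, 115 and 120.5 CPM at the medium dose and 99.3, 104 and 132 at the low dose. NDUFB8 was at 85.5, 98.0 and 106 CPM at the medium dose and 79.7, 86.0 and 107 at the low dose. NDUFA4 was at 163, 187 and 195 CPM at the medium dose and 153, 165 and 187 at the low dose. Library 3 was the highest of both doses in these genes too. SDHB was at 67.7, 74.1 and 78.0 CPM at the medium dose and 64.6, 68.4 and 81.1 at the low dose. NDUFS1 was at 130.5, 119 and 119 CPM at the medium dose and 129, 126 and 118 at the low dose, library 3 being lowest at the low dose. A fit of the 6 libraries alone called 12 members higher at the medium dose, beside 7.26% of all genes.

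Within the set of Bupleuri and Aconiti, SDHA was the one member called by the shared fit. Aconiti high against low gave −0.23 ± 0.0715 (SE) for SDHA, adjusted p = 0.017 by edgeR, beside 22.7% of all genes, with 1 member by DESeq2 and 6 under an unadjusted p of 0.05. In Bupleuri high, SDHA was at 123, 116 and 113 CPM, above the 90.3, 109 and 105 CPM of Aconiti high in every library, and the fold was 0.21 ± 0.0714 (SE), adjusted p = 0.0281 by edgeR. In that comparison 23.1% of all genes were called, DESeq2 called 1 member and 3 were under an unadjusted p of 0.05. The doses compared were 500 and 360 µg/mL. The SDHA call between these extracts was lost without Bupleuri high library 1 or 2, and without Aconiti high library 1 or 3. The call between Aconiti doses was lost without Aconiti high library 1 or Aconiti low library 3. Both SDHA calls were also lost in fits of 6 libraries alone (adjusted p = 0.146 between extracts and 0.217 between doses by edgeR) and without the low-count filter (0.119 and 0.0591). With the covariate, 30 members were lower and 2 higher at the high than at the low Aconiti dose, beside 35.7% of all genes, and 26 were higher in Bupleuri high than in Aconiti high, beside 35.2%. At its high dose, each against the same vehicle libraries, SDHA had a fold of −0.08 in Citri, −0.13 in Cimicifugae, −0.02 in Bupleuri, −0.12 in Yijung and −0.14 in Banhasasim, none of these 5 past the threshold.

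The other within-set comparisons gave no call by edgeR. Citri high against low had 0 members under an unadjusted p of 0.05 and 0 by DESeq2, beside 0.0232% of all genes called, and a median of −0.02. Citri high against Cimicifugae high had 0 and 0, beside 0.689%, with a median of −0.03. Yijung high against Banhasasim high had 1 and 0, beside 4.79%, with 59 of 60 folds above 0 and a median of 0.17. The largest fold of that last pair was that of NDUFA3, a complex I accessory subunit, at 55.6, 50.3 and 41.3 CPM in Yijung high and 38.9, 35.2 and 41.2 in Banhasasim high (0.36 ± 0.149 (SE), adjusted p = 0.193). The mean balances of these groups were 2.18 and 2.36. The standard error of a member's fold was 0.155 at the median over members, so a true shift of that size could not be told from the spread. Larger folds also went uncalled: UQCRFS1 at Citri medium against vehicle, at 0.52 ± 0.147 (SE), had an adjusted p of 0.125 by edgeR. At that dose UQCRFS1 ranged from 309.8 to 545 CPM, and the Citri medium folds rest on library 1.

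Genes around the chain were read from lists in the same fit at the Aconiti high dose, where 32.7% of all genes were called. That share counts both directions in the fit without the covariate. Counts with the covariate belong beside the shares given above for that fit at this dose. Among 18 nuclear subunits of ATP synthase 1 was higher, ATP5F1D of the rotor stalk (0.57), with a list median of 0.06. With the covariate 12 were lower and 0 higher, ATP5F1D having a fold of 0.15 and an adjusted p of 0.0559 by edgeR. Of 5 tested relatives outside the rule, CYC1, the heme-bearing cytochrome c1 of complex III, was higher (0.40, but 0.18 with the covariate, adjusted p = 0.102 by edgeR), as was NDUFA4L2, a paralog of NDUFA4 induced by hypoxia (1.84), which lay at 1.29 ± 0.46 CPM in vehicle and 4.54 ± 0.876 at the high dose (SD, n = 3). With the covariate NDUFA4L2 stayed higher (1.67). CYCS and COX7A2L were lower there, at −0.29 and −0.13 (adjusted p = 2.33e-06 and 0.0317 by edgeR). Complex I assembly factors had 0 higher and 2 lower of 17, NUBPL, which delivers iron-sulfur clusters (−0.21), and NDUFAF7, a methyltransferase (−0.20). Neither passed with the covariate (adjusted p = 0.075 and 0.0548 by edgeR), where 6 others were lower (NDUFAF1, NDUFAF4, NDUFAF5, FOXRED1, TMEM70 and DMAC2, named after their values were seen). Assembly factors of complexes II to IV had 7 higher and 5 lower of 34. Among these, SDHAF4, which acts on SDHA (0.90), SURF1 (0.69) and SDHAF1 (0.50) were higher and COX16 was lower (−0.41). With the covariate SDHAF1 had a fold of 0.19 and an adjusted p of 0.0865 by edgeR. SDHAF4 was at 3.14 ± 0.547 CPM in vehicle and 5.84 ± 0.933 at the high dose, the opposite direction to SDHA.

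Regulators of mitochondrial biogenesis had 3 higher and 6 lower of 17 tested, with TFB1M, a methyltransferase of 12S rRNA, at 0.72, MTERF1 at −0.54, GABPA at −0.48 and ESRRA at 0.34. With the covariate ESRRA was at 0.15, with an adjusted p of 0.113 by edgeR. NRF1, whose motif was searched above, was at −0.30 and TFAM, which packages mitochondrial DNA, at −0.24, both lower. YY1 was lower too, at −0.15. NRF1, TFAM and YY1 fall outside the rule for naming and were chosen after their values were seen. Tricarboxylic acid cycle enzymes had 2 higher and 3 lower of 14: MDH2, malate dehydrogenase, was at 0.37, and CS, citrate synthase, FH, fumarase, and DLD were at −0.32, −0.31 and −0.23. FH acts on the product of complex II. Stress response genes had 11 higher and 2 lower of 15, led by TRIB3 (2.64), DDIT3 (2.56), CHAC1 (2.06) and GDF15 (1.76). The 13 mitochondrially encoded subunits had 3 higher and 8 lower, from MT-CYB at 1.37 to MT-CO3 at −1.22, with a median of −0.77. Their summed level was 58210.0 ± 3060.0 CPM in vehicle and 45990.0 ± 6342 at the high dose (SD, n = 3), while the nuclear subunits summed to 5490.0 ± 302 and 6062 ± 794. The 12S rRNA gene MT-RNR1 was at 1617, 1449.7 and 1651 CPM in vehicle and 35687, 42759 and 44582 at the high dose. The share of counts from the mitochondrial genome was 8.30 ± 0.342% in vehicle and 17.5 ± 1.31% at the high dose (SD, n = 3). With genes of the mitochondrial genome removed before scaling, 9 nuclear subunits were called, 8 higher and 1 lower, beside 32.7% of all genes.

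At the Aconiti medium dose, where 2.29% of all genes and no nuclear subunit were called, 4 mitochondrially encoded subunits were higher and 5 lower, MT-ND6 and MT-ND5 leading at 2.61 and 2.52. The stress genes had 8 higher of 15, with CHAC1 at 1.56 and TRIB3 at 1.32, and NDUFA4L2 was higher at 1.16. In Yijung high, beside 7.09% of all genes called, 5 stress genes were higher, CHAC1 (0.72) and GDF15 (0.68) foremost, with MT-ATP8 (0.88), MT-CO2 (0.45), TFAM (0.17) and IDH3A (0.16) also higher. In Yijung medium, beside 7.85% of all genes called, 8 stress genes were higher, with TFB1M (0.44) and GABPB1 (0.22), and MT-CO1 was lower (−0.30). These dose groups share the vehicle libraries with every other comparison against vehicle.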

How the data were processed

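RNA from 60 A549 libraries, sequenced as 100 bp pairs from a directional kit per the labels, was analysed, and 209 other sample columns were not used here. The authors deposited expected counts per gene. Per the submitters' processing notes, the tools were RSEM 1.3.3, STAR 2.7.3a, Trim Galore 0.6.5 and FastQC 0.11.9, on hg38. The annotation release is not given in the sources used here. The deposited expected counts were not whole in 9.37% of values and were rounded, which matters only at low counts.

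edgeR 4.0.16 (R 4.3.3) fitted 57 libraries in 19 groups with TMM scaling, filterByExpr (minimum count 10) and the quasi-likelihood test. P-values were adjusted by Benjamini-Hochberg over all 17268 genes tested, in each of 27 comparisons, with a threshold of 0.05. Each SE was derived from the fold and its F statistic. The shared spread had 38 residual degrees of freedom and a biological coefficient of variation of 10.1%. The steps were tested on simulated data. The 3 Bojungikgi libraries entered no fit.

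Named were a panel of 8 genes, up to 8 called rises and 8 falls per comparison, any called against the majority, the highest and lowest of each complex per length, and up to 4 called genes per context list. The members and lists were chosen with earlier results of these data known. Alternatives were RLE scaling, DESeq2 1.42.0, no low-count filter, robust estimation, a replicate block, fits of 6 libraries alone, single libraries left out, mitochondrially encoded genes removed, Citri medium library 1 left out, and the length balance as a covariate. The covariate without that library, and a fit without the 22 low-balance libraries, were added after seeing the data. Values of 1 member are not reported here, though it stays in counts and sums.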

Additional observations from a re-analysis of the deposited data

Results flagged for a closer look

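SDHA differed between extracts of one set label: its level was 117 ± 4.86 CPM in Bupleuri high and 101 ± 9.83 CPM in Aconiti high (SD, n = 3 each), a log2 difference of 0.21 with an adjusted p of 0.0281 by edgeR, higher in 3 of 3 Bupleuri libraries than in any Aconiti library. In this comparison 23.1% of all genes were called. The SDHA call was lost on leaving out some single libraries of either group. It was also lost in a fit of the libraries of these groups alone and without the low-count filter. The doses were 500 and 360 µg/mL, so extract and dose cannot be told apart.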

How the results depend on the processing

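Of the values for counts and medians under the alternatives, 525 stayed near the reported ones and 80 moved, most where the length balance entered. Counts below are called members, given without the share of all genes called in the same fit. They show how counts moved between fits, and not whether members were called more often than other genes.

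With the covariate the counts were 33 for Aconiti high, 1 for Cimicifugae high, 1 for Bupleuri high, 7 for Yijung high, 1 for Yijung medium, 32 for Aconiti high against low and 26 for Bupleuri high against Aconiti high. With the covariate and Citri medium library 1 left out they were 34, 3, 1, 9, 2, 31 and 26, and 1 for Aconiti medium, 2 for Yijung high against low and 1 for Yijung high against Banhasasim high. The Aconiti high median turned to −0.17 and −0.15 in these 2 fits, NDUFB8 to −0.13 and −0.12, NDUFA4 to −0.28 and −0.29, and UQCRFS1 to −0.22 and −0.20. NDUFV1 turned to −0.14 in Yijung high against Banhasasim high in the latter.

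Without the 22 low-balance libraries the counts were 12 for Aconiti high (median −0.07, NDUFA4 −0.26), 5 for Yijung high, 9 for Yijung medium, 12 for Aconiti high against low, 7 for Bupleuri high against Aconiti high and 1 for Yijung high against Banhasasim high. Counts with Aconiti high there rest on its library 1 alone, assumed to vary like the other groups. Without Citri medium library 1 alone they were 15 for Aconiti high, 6 for Aconiti high against low and 4 for Bupleuri high against Aconiti high. Fits of 6 libraries alone gave 4 for Cimicifugae high, 2 for Bupleuri high, 12 for Aconiti medium, 2 for Citri high against Cimicifugae high and 0 for Aconiti high against low. Without the low-count filter Citri medium had 3, and Aconiti high against low and Bupleuri high against Aconiti high had 0 each. DESeq2 gave 1 for Citri medium.

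Leaving out single libraries gave 0 to 47 for Citri medium, 2 to 15 for Aconiti high (median 0.08 to 0.25), 0 to 2 for Aconiti high against low and 0 to 3 for Bupleuri high against Aconiti high.

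In the Aconiti high lists, ATP synthase had 12 calls with the covariate, 14 with it and the Citri library left out, 6 without low-balance libraries, 3 without the Citri library, 2 from 6 libraries alone and 0 to 3 with single libraries left out. Complex I assembly factors had 6, 6, 5 without the Citri library, 0 from 6 libraries alone, 0 without the filter and 0 to 3. Assembly factors of complexes II to IV had 21, 22 and 7 to 10. The cytochrome c list had 1 to 2 with single libraries left out. Biogenesis regulators had 5 without low-balance libraries and 5 from 6 libraries alone. Tricarboxylic acid cycle enzymes had 8 with the covariate and the Citri library left out, 3 without low-balance libraries, 8 without the Citri library, 3 from 6 libraries alone and 3 to 6 with single libraries left out. The cause of these shifts was not tested.

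Same-numbered libraries did not vary together: in 0 of 27 comparisons was every pair's correlation over 0.1 (range −0.20 to 0.30), and in 2 each library correlated best with its own number. With the replicate block Aconiti high had 5 called members in place of 7. With 3 libraries a group, the median SE of 0.155 limits what can be detected for a single member.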
